A study of Homo sapiens with 39 samples.

Results

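The genes described here are 9 members of the transforming growth factor beta (TGF-beta) and bone morphogenetic protein (BMP) pathways, chosen by name. They are the ligand genes TGFB1, INHBA and BMP4, the inhibitor genes PMEPA1, SMAD6 and SMAD7, and the target genes ID1, ID2 and ID3. All 9 were listed among the 23710 gene symbols of each of the 5 tables. RNA sequencing had been used to ask how the dose of TRIM37, a ubiquitin ligase, bears on gene expression in 2 human cell lines. hTERT-RPE1 is a retinal pigment epithelial line immortalised with telomerase, while CHP-134 derives from a neuroblastoma. The 39 libraries fall into 9 groups. RPE1 wild type and an RPE1 TRIM37 knockout had 9 libraries each, and CHP-134 wild type and 2 CHP-134 mutant clones, labelled as partial TRIM37 knockouts and called clone 1 and clone 2, had 3 each. The other groups were RPE1 clones with a TetOn cassette for TRIM37, called TetOn clone 4 and TetOn clone 5, with 3 untreated and 3 doxycycline-treated (1 µM, 24 h) libraries each. The groups include no doxycycline-treated cells without the cassette, so effects of the drug and of TRIM37 cannot be told apart. The RPE1 wild type libraries are numbered as 3 sets of 3 and those of the knockout from 1 to 9. What the libraries of a set share is not given, and if they share a culture the p-values of this comparison are too small. The labels do not say whether the RPE1 knockout is 1 clone, and each mutant or TetOn line is 1 clone, so traits of a clone and effects of TRIM37 cannot be told apart. Nothing used here says that replicates were separate cultures, so the tests may measure technical spread only.

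TGF-beta family ligands are secreted dimers that bind pairs of receptor kinases at the cell surface. TGF-beta and activin receptors phosphorylate SMAD2 and SMAD3, and BMP receptors phosphorylate SMAD1, SMAD5 and SMAD9, which enter the nucleus with SMAD4 and act on target genes. Among these targets are the pathway's own inhibitors, so PMEPA1, SMAD6 and SMAD7 serve as feedback, and the ID genes, which are classic BMP targets. In epithelial cells TGF-beta signalling is known for growth arrest and for the shift to a mesenchymal state, and in the neural crest lineage BMP signalling is known for promoting sympathetic neuron fate.

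Each table is the authors' own comparison of 2 groups. For each gene it lists a mean count, a log2 fold change, the standard error (SE) of that change and a q, the p-value after adjustment. A gene was called when its q was under 0.05. The tables mark genes with a mean count of at most 10 as Low, and some others as Outlier, and give both a q of 1, so neither could be called. The depth of each library is unknown, as no value per library was analysed here. From the mean count and the fold change the level in each of the 2 groups was worked out, in CPM, the scale on which all mean counts of a table sum to 1000000. The tables were normalised separately, so levels from different tables are descriptions. TRIM37 itself went from 69 CPM in RPE1 wild type to 17.9 in the knockout and from 282 to 89.4 and 283 to 84.2 in CHP-134 clones 1 and 2. It went from 148 to 1352 in TetOn clone 4 and from 265 to 1650 in TetOn clone 5. The RPE1 tables held high mean counts of the epithelial keratin gene KRT8 (11700 to 20500) and of OTX2 (503 to 874) in the authors' deposited tables. The retinal pigment epithelium genes RPE65 and TYR were at or near 0 there, at most 0.173 and 0.157 in the authors' deposited tables. In the CHP-134 tables the neuroblastoma oncogene MYCN (49700 and 46600) and the sympathetic regulator gene HAND2 (7580 and 7630) were high and the catecholamine enzyme gene TH was under the count limit (6.95 and 7.12) in the authors' deposited tables. The Schwann cell gene SOX10 was listed at 0 in all 5.

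In the RPE1 knockout PMEPA1 and ID2 rose and BMP4, INHBA and SMAD7 fell. In both CHP-134 clones TGFB1 and PMEPA1 rose, and in TetOn clone 5 the same pair of genes fell together with BMP4. In the RPE1 knockout 5 of the 6 genes tested were called, 2 up and 3 down, where 53.6% of all tested genes were called, 26.6% up and 26.9% down. In CHP-134 clone 1 the count was 2 up of 3 tested against 18.7% of all tested genes, 9.60% being up and 9.07% down. For clone 2 the members gave 2 up of 3 against 46.2% of all tested genes, 22.0% up and 24.2% down. Clone 4 of the TetOn line had 0 called of 7 tested by the authors' q, and 0 at an unadjusted p under 0.05 either, against 1.95% of all tested genes, 0.716% up and 1.23% down. Clone 5 had 0 up and 3 down of 8 tested, against 2.97% called, 0.795% up and 2.17% down, among all tested genes. The shares in the RPE1 knockout and in CHP-134 clone 2 rest on very few genes beside backgrounds near 1 gene in 2. The median log2 fold change of the tested members was -0.048 in the knockout, 0.302 and 0.327 in CHP-134 clones 1 and 2, and -0.061 and -0.145 in TetOn clones 4 and 5. Over all tested genes the medians lay between -0.012 and 0.002. With the members marked Outlier included, the knockout median turned to 0.324, with 6 of 9 values positive, and that of CHP-134 clone 1 was 0.140 over 8. In the same way it was 0.327 in clone 2, -0.061 in TetOn clone 4 and -0.122 in TetOn clone 5.

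**Figure D1:**
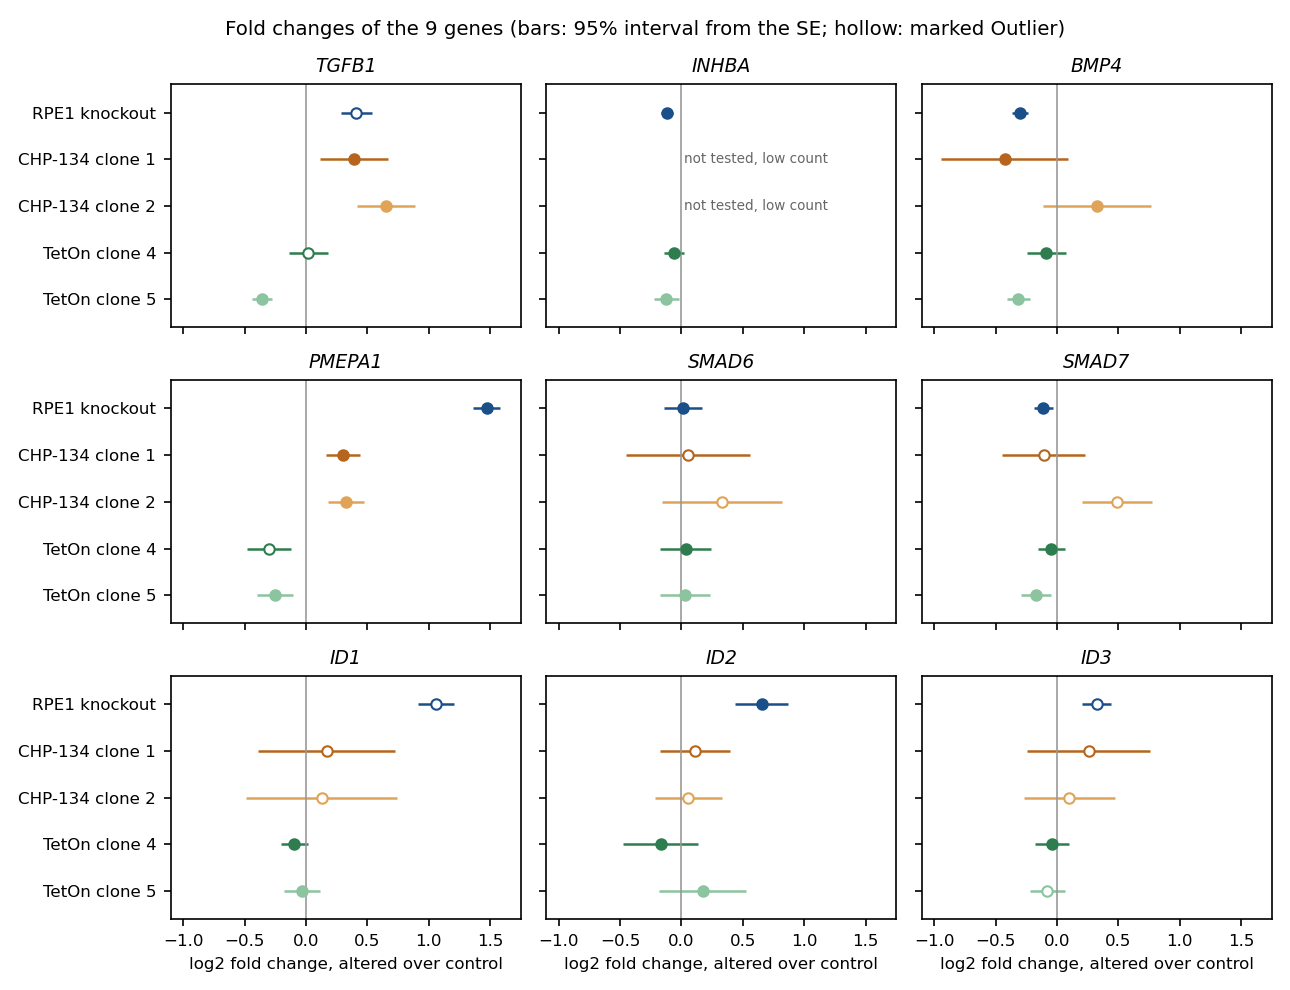
Log2 fold change of each of the 9 genes (horizontal axis, altered group over its control) in the 5 comparisons (rows), with 95% intervals from the authors' SE. Filled points were tested, and hollow points carry the Status Outlier. PMEPA1 lies right of 0 in the 3 comparisons with less TRIM37, from 0.30 to 1.47, and left of 0 in the pair with more, at -0.30 and -0.25.

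Outlier marks were frequent among these genes. They fell on 3 of the 9 in the RPE1 knockout (TGFB1, ID1 and ID3), on 5 in each CHP-134 clone (SMAD6, SMAD7, ID1, ID2 and ID3), on 2 in TetOn clone 4 (TGFB1 and PMEPA1) and on 1 in TetOn clone 5 (ID3). Among all genes above the count limit the marked share was between 1.76% and 5.45%. No source used here says how the mark was set. In the CHP-134 tables the marked genes had wide errors, with SE values from 0.139 for ID2 to 0.314 for ID1 in clone 2 of the authors' deposited tables, against a median SE of 0.0887 over tested genes. The members marked in these tables are the intracellular SMAD inhibitors and the ID genes, while the ligand genes TGFB1 and BMP4 and the inhibitor gene PMEPA1 were tested. The spread of single libraries that lies behind the marks was not analysed here.

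Among the ligands, TGFB1 encodes the founding TGF-beta cytokine. Its level was 15 CPM in CHP-134 wild type by both tables, and it was 19.6 in clone 1 and 23.6 in clone 2. Both mutant clones thus lay above their shared wild type. TGFB1 rose with a log2 fold change of 0.39, SE 0.141, q = 0.0343 in clone 1 and 0.65, SE 0.122, q = 7.86e-07 in clone 2, in the authors' deposited tables. The clones differed by 0.263, SE 0.186, a difference that did not pass its test (adjusted p = 0.356, two-sided normal test with Benjamini-Hochberg adjustment over 12579 genes), with a 95% interval of -0.10 to 0.63. The RPE1 knockout gave 110 CPM in wild type and 146 in the knockout, a log2 fold change of 0.41, SE 0.064 in the authors' deposited table, where the gene was marked Outlier and so had no test. Doxycycline took TGFB1 from 221 to 173 CPM in TetOn clone 5, a fall by 0.36 on the log2 scale, SE 0.0403, q = 5.35e-16 in the authors' deposited table. In TetOn clone 4 it was 138 without and 140 with the drug, at 0.02, SE 0.0813, marked Outlier in the authors' deposited table. The induced clones therefore gave different values for TGFB1, and since 1 of the tables marks the gene, their difference of -0.375, SE 0.0907 was tested with marked genes kept (adjusted p = 0.0204).

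INHBA encodes the activin A subunit. In RPE1 it stood at 163 CPM in wild type and 150 in the knockout. It fell by 0.12 on the log2 scale, SE 0.0248, q = 4.58e-06 in the authors' deposited table, a change of -8.0%. Untreated and treated TetOn clone 4 had 88.2 and 84.5 CPM and clone 5 had 104 and 95.4. Neither passed, with log2 fold changes of -0.06, SE 0.042, q = 0.723 and -0.12, SE 0.0525, q = 0.294 in the authors' deposited tables. The value in TetOn clone 5 is as large as that in the knockout with an SE about 2 times as wide. In CHP-134 INHBA was under the count limit, with mean counts of 1.39 and 2.26 in the authors' deposited tables, so it was not tested there and no fold is given.

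BMP4 encodes a BMP that patterns the neural crest and eye. It was at 66.7 CPM in RPE1 wild type and 54.1 in the knockout, a fall by 0.30, SE 0.0336, q = 2.34e-18 in the authors' deposited table. The TetOn clones started from different levels, 34.0 CPM in untreated clone 4 and 69.5 in untreated clone 5. Doxycycline left 32.0 and 55.9 CPM. In clone 5 BMP4 fell by 0.32, SE 0.0476, q = 5.9e-09, and in clone 4 it was at -0.09, SE 0.0803, q = 0.839, in the authors' deposited tables. The difference between these clones was -0.229, SE 0.0933 (95% interval -0.41 to -0.05) and did not pass the test of the difference over 11778 genes (adjusted p = 0.60), in which 0 members and 0.221% of all genes were called. BMP4 was thus lower both where TRIM37 was lost and where it was induced in clone 5. In CHP-134 it was near the count limit, at 1.27 and 1.36 CPM in wild type by the 2 tables, 0.945 in clone 1 and 1.71 in clone 2. The authors' deposited tables gave -0.43, SE 0.265, q = 0.277 and 0.33, SE 0.223, q = 0.228, neither of which passed.

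PMEPA1 encodes a membrane protein that binds SMAD2 and SMAD3 and limits TGF-beta signalling. Of the 9 genes it had the largest fold change, in the RPE1 knockout, where its level was 11.6 CPM in wild type and 32.2 in the knockout. It rose by 1.47 on the log2 scale, SE 0.0565, with q printed as 0 in the authors' deposited table, a 2.77-fold difference (95% interval 2.57 to 2.99). CHP-134 wild type had 17.9 CPM by both tables, and clones 1 and 2 had 22.0 and 22.5. PMEPA1 rose in each, by 0.30, SE 0.0709, q = 0.000394 and 0.33, SE 0.0759, q = 8.81e-05 in the authors' deposited tables, which share their wild type libraries. On doxycycline, with more TRIM37 than in untreated cells of the same clone, the sign was the other one. TetOn clone 5 went from 30.5 to 25.7 CPM, a fall by 0.25, SE 0.0764, q = 0.0383 in the authors' deposited table. TetOn clone 4 went from 60.2 to 48.9 CPM, a log2 fold change of -0.30, SE 0.0912, marked Outlier in the authors' deposited table, for which the p recomputed from these values was 0.000965 before adjustment. The rise in the knockout exceeded that in CHP-134 clone 1 by 1.168, SE 0.0907 (adjusted p = 4.66e-36) and that in clone 2 by 1.143, SE 0.0946 (adjusted p = 6.52e-32). In these tests of the difference 34.1% and 46.5% of all genes were called, beside 1 of 2 and 2 of 2 members tested.

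The level of PMEPA1 also differed between RPE1 lines that had not lost TRIM37. TRIM37 itself was higher in untreated TetOn clones 4 and 5 (148 and 265 CPM) than in wild type (69). These untreated clones held 60.2 and 30.5 CPM of PMEPA1, so clone 4 was above and clone 5 near the 32.2 of the knockout, and wild type at 11.6 was below all 3. Both untreated clones thus lay above wild type in TRIM37 and in PMEPA1, unlike the inverse signs within the comparisons. Between these clones the one with more TRIM37 held less PMEPA1. Scaling by the median ratio over genes gave the untreated clones 5.28 and 2.68 times the wild type level of PMEPA1. The spread between RPE1 lines was therefore as wide as the difference between knockout and wild type. What it contributes to that difference was not tested.

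SMAD6 and SMAD7 encode inhibitory SMADs, which block the receptors. SMAD6, the inhibitor with a preference for BMP receptors, was at 9.43 and 9.53 CPM in RPE1 wild type and knockout, 9.06 and 9.27 in untreated and treated TetOn clone 4, and 10.3 and 10.6 in clone 5. Its log2 fold changes were 0.01, SE 0.0776, 0.03 (SE 0.105) in clone 4 and 0.03 (SE 0.104) in clone 5 of the authors' deposited tables, with q values from 0.896 to 0.974. The 95% intervals in these 3 comparisons reached at most 0.24 from 0. Of the 9 genes SMAD6 held the narrowest range of levels over the 6 RPE1 groups. SMAD7, which also blocks TGF-beta receptors, fell slightly in the knockout, from 42.5 to 39.4 CPM (-0.11, SE 0.0386, q = 0.00997 in the authors' deposited table). In TetOn clones 4 and 5 it was at -0.05, SE 0.0562, q = 0.906 and -0.17, SE 0.0616, q = 0.141 in the authors' deposited tables, neither passing. In CHP-134 both genes were marked Outlier. SMAD7 went from 15.7 to 22.1 CPM in clone 2 (0.49, SE 0.147) and from 15.5 to 14.3 in clone 1 (-0.11, SE 0.172) in the authors' deposited tables. With marked genes kept, the difference of 0.597, SE 0.226 between these clones passed (adjusted p = 0.0428).

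The windows just upstream of the inhibitor genes were searched for motifs of the SMAD proteins, as these genes are feedback targets. All 9 members matched the RefSeq promoter table on GRCh38.p14. The motifs were CAGAC, the core bound by SMAD3 and SMAD4, its palindromic form GTCTAGAC, and GGCGCC, a GC-rich site bound by SMAD1 and SMAD5. Both strands of the 250 bases before each annotated start were read, and none of the 3 motifs contains another. Of 35116 such windows 38.0% held CAGAC, 0.182% held GTCTAGAC and 16.4% held GGCGCC. The window of SMAD6, on the plus strand at chr15:66701986-66702235, held GTCTAGAC at 12 bases before the start. It is shown because this motif is rare. In these windows SMAD7 held CAGAC at 2 of its 3 annotated starts and neither of the other motifs. Sequence outside the windows was not searched, so a motif missing here may be present elsewhere near the gene. Of the 4 annotated starts of PMEPA1, 2 held CAGAC and 1 held GGCGCC. The window shown, on the minus strand at chr20:57710578-57710827, held CAGAC at 115 bases before the start and belongs to the member with the largest change. Both are written in the direction of transcription with the matched motif in capitals.
SMAD6: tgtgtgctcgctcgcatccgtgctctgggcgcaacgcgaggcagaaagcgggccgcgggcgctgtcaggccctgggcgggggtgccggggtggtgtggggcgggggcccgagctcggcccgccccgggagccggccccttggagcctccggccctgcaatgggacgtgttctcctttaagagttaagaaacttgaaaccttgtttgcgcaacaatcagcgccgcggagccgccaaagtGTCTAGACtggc
PMEPA1: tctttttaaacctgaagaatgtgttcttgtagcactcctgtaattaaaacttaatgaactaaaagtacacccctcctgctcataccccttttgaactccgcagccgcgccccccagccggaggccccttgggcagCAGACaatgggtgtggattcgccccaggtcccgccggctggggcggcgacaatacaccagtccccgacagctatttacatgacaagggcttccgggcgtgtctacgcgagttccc
A match describes the letters of the window and is no evidence of binding in these cells. SMAD6, with the rarest of the 3 motifs in its window, had log2 fold changes of 0.01, 0.03 and 0.03 in the 3 RPE1 comparisons. In CHP-134 clones 1 and 2 it was at 0.05 (SE 0.256) and 0.33 (SE 0.25), marked Outlier in the authors' deposited tables. PMEPA1, with a common motif, was called in each comparison where it was tested. Whether a motif bears on the fold change was not tested. SMAD7, with the same common motif as PMEPA1, was called in the knockout, in the direction opposite to PMEPA1, and in neither TetOn clone.

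ID1, ID2 and ID3 encode helix-loop-helix proteins without a DNA-binding domain, which hold differentiation factors inactive. All 3 were higher in the RPE1 knockout than in wild type, and ID2, the one tested, rose. ID2 went from 4.46 to 7.01 CPM, a rise of 0.65, SE 0.111, q = 1.98e-08 in the authors' deposited table. ID1 went from 24.8 to 51.7 CPM, 1.06, SE 0.0755 in the authors' deposited table, a 2.08-fold difference. ID3 went from 109 to 137 CPM, 0.32, SE 0.061 in the authors' deposited table. ID1 and ID3 were marked Outlier there, so the deposited q calls neither. With marked genes kept and p recomputed from fold change and SE, 8 of the 9 members passed in this comparison. SMAD6 was the exception. The share of all genes passing under that setting is not given here, but by the deposited q 53.6% of all tested genes were called. With the statistic rescaled to its central spread over all genes (3.64), PMEPA1 alone of the tested members passed. The count is therefore no evidence of a response particular to these pathways.

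Induction of TRIM37 gave no call for the ID genes. ID1 was at 55.9 and 52.4 CPM in untreated and treated TetOn clone 4 and at 48 and 46.9 in clone 5, with log2 fold changes of -0.09, SE 0.0577, q = 0.661 and -0.03, SE 0.0766, q = 0.964 in the authors' deposited tables. These 4 levels lie near the 51.7 of the knockout and about 2 times above the 24.8 of wild type. ID1 thus had the same order of lines as PMEPA1, with wild type below the knockout and below every TetOn group, and the part of the line in its difference was not tested. ID2 was also lower in wild type than in the knockout, but the TetOn groups lay on the other side. It stood at 2.51 and 1.63 CPM in untreated TetOn clones 4 and 5, both below the 4.46 of wild type. Its log2 fold changes on doxycycline were -0.17 (SE 0.157, q = 0.838) in clone 4 and 0.17 (SE 0.179, q = 0.858) in clone 5 of the authors' deposited tables. ID3 was between 94.8 and 118 CPM in the 4 TetOn groups, and neither -0.04, SE 0.0711 (q = 0.942) nor -0.08, SE 0.0732 (Outlier) was called in the authors' deposited tables. In both CHP-134 clones all 3 ID genes were marked Outlier, with log2 fold changes from 0.05 to 0.26 and intervals that include 0.

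The windows upstream of the 3 ID genes are shown because these paralogs share a role and were all higher in the knockout. ID1 lies on the plus strand at chr20:31605039-31605288, ID2 on the plus strand at chr2:8681806-8682055 and ID3 on the minus strand at chr1:23559502-23559751. CAGAC was found in the window of ID3, at 147 bases before the start and in capitals below, and none of the 3 motifs was found in those of ID1 and ID2.
ID1: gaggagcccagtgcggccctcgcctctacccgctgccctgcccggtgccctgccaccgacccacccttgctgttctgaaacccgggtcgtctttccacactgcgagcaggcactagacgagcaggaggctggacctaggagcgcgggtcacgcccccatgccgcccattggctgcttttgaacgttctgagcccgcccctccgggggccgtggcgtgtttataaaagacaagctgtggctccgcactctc
ID2: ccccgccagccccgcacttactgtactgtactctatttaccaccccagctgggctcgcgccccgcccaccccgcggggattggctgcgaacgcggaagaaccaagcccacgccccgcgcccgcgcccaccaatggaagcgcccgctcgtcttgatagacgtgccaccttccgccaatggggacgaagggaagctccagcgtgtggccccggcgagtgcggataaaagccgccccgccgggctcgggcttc
ID3: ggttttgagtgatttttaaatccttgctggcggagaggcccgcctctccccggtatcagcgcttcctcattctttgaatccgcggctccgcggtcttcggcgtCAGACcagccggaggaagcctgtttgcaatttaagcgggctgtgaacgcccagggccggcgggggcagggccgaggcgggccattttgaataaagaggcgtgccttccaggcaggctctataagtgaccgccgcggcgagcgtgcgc
The BMP-responsive elements described for ID genes lie further from the start than these windows reach, so the windows say nothing on those elements. ID3, with the matched motif, had the smallest of the 3 fold changes in the knockout.

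**Figure D2:**
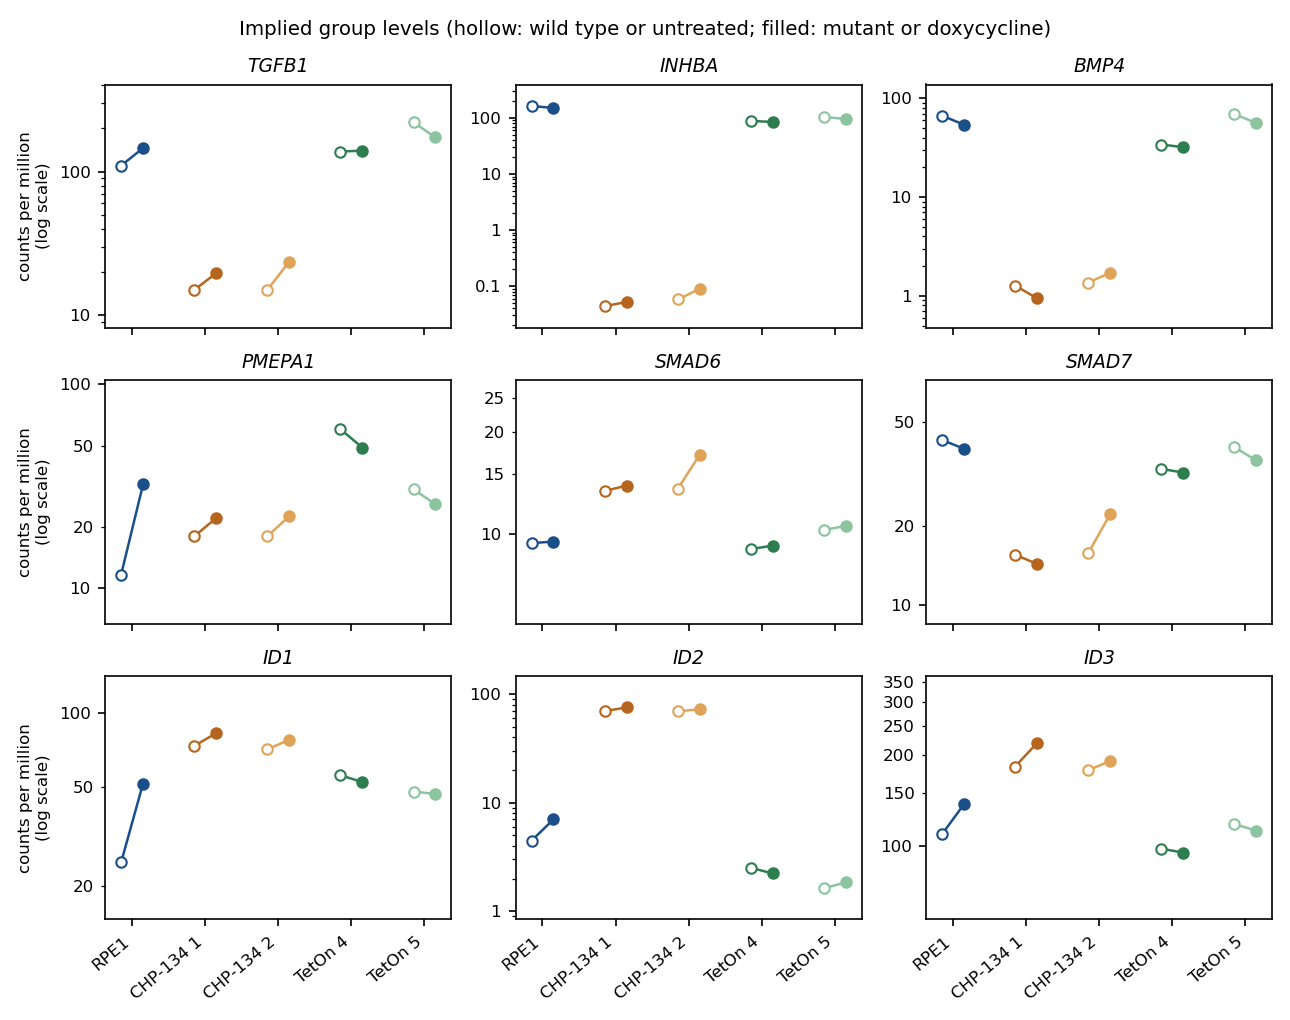
Level of each gene in CPM (vertical log axis), worked out from the authors' mean count and fold change for the control (hollow) and altered (filled) group of each comparison, joined by a line, with an axis range of its own in each panel. Wild type RPE1 has the lowest PMEPA1 level, 11.6, and the lowest ID1 level, 24.8, of all groups, and INHBA in CHP-134 lies under the count limit of the tables.

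Except for PMEPA1, the members above the count limit in both lines differed more between the wild type cell lines than in any comparison of TRIM37 dose. The gap was widest for BMP4, ID2 and TGFB1 and narrow for SMAD6, at 1.43 times against at most 1.26. PMEPA1 differed 1.54 times between the lines and 2.77-fold in the knockout. CHP-134 wild type, which is in 2 tables, served as a check. Over 12579 genes its levels from the 2 tables had a median log2 ratio of -0.003, with 90% of genes between -0.030 and 0.038. Of the members BMP4 (-0.104), ID1 and ID3 (0.044 each) and the barely detected INHBA (-0.395) lay outside this range, so the levels of BMP4 and INHBA in CHP-134 are the least certain. TGFB1 was 7.31 times and BMP4 50.6 times as high in RPE1 wild type as in CHP-134 wild type, and SMAD7 2.73 times. In the other direction ID2 was 15.6 times, ID1 2.91 times, ID3 1.65 times, PMEPA1 1.54 times and SMAD6 1.43 times as high in CHP-134. Of the members, the ligand genes TGFB1 and BMP4 were thus higher in the epithelial line and the ID genes in the neuroblastoma line. This does not extend to every ligand gene of the pathways. No test could be made of these levels, which have no error, and scaling by the median ratio over genes raised every RPE1 over CHP-134 ratio by 0.16 on the log2 scale without turning the order for any member.

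BMP4 was further tested for a difference between the cell lines. The RPE1 knockout against CHP-134 clone 2 gave -0.628, SE 0.226 (adjusted p = 0.014 over 11160 genes), from log2 fold changes of -0.30 and 0.33. This call was lost with the rescaled statistic described at the end (adjusted p = 0.945) and at a threshold of 0.01. Against clone 1 the difference was 0.124, SE 0.267 (adjusted p = 0.769, 95% interval -0.40 to 0.65). The 2 CHP-134 clones differed by 0.752, SE 0.346 in BMP4 (adjusted p = 0.114), where 20.5% of all genes and 0 of the 3 members tested passed. That test is conservative as the clones share their wild type. With a covariance of 0.5 for the shared libraries BMP4 passed (adjusted p = 0.00876).

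The other genes of the pathways were taken from a list of 102 genes in 9 roles, all of which were in the tables. In the RPE1 knockout 60 of 80 tested were called, 32 up and 28 down, with a median log2 fold change of 0.01. In the CHP-134 clones 12 of 66 (5 up and 7 down) and 31 of 65 (15 up and 16 down) were called, with medians of 0.01 and -0.03. In TetOn clone 4 it was 7 of 70, 1 up and 6 down, and in clone 5 it was 12 of 69, 0 up and 12 down, with medians of -0.02 and -0.04. These are 75.0%, 18.2%, 47.7%, 10.0% and 17.4% of the list, in the order given, beside 53.6%, 18.7%, 46.2%, 1.95% and 2.97% of all tested genes. The calls in both TetOn clones leaned downwards, while those of the knockout and the CHP-134 clones were split. Calls over all tested genes had the same pattern. They were 0.716% up and 1.23% down in TetOn clone 4 and 0.795% and 2.17% in clone 5. In the knockout they were 26.6% up and 26.9% down, and in CHP-134 clones 1 and 2 9.60% and 9.07%, and 22.0% and 24.2%. The downward lean by itself is therefore not particular to this list.

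**Figure D3:**
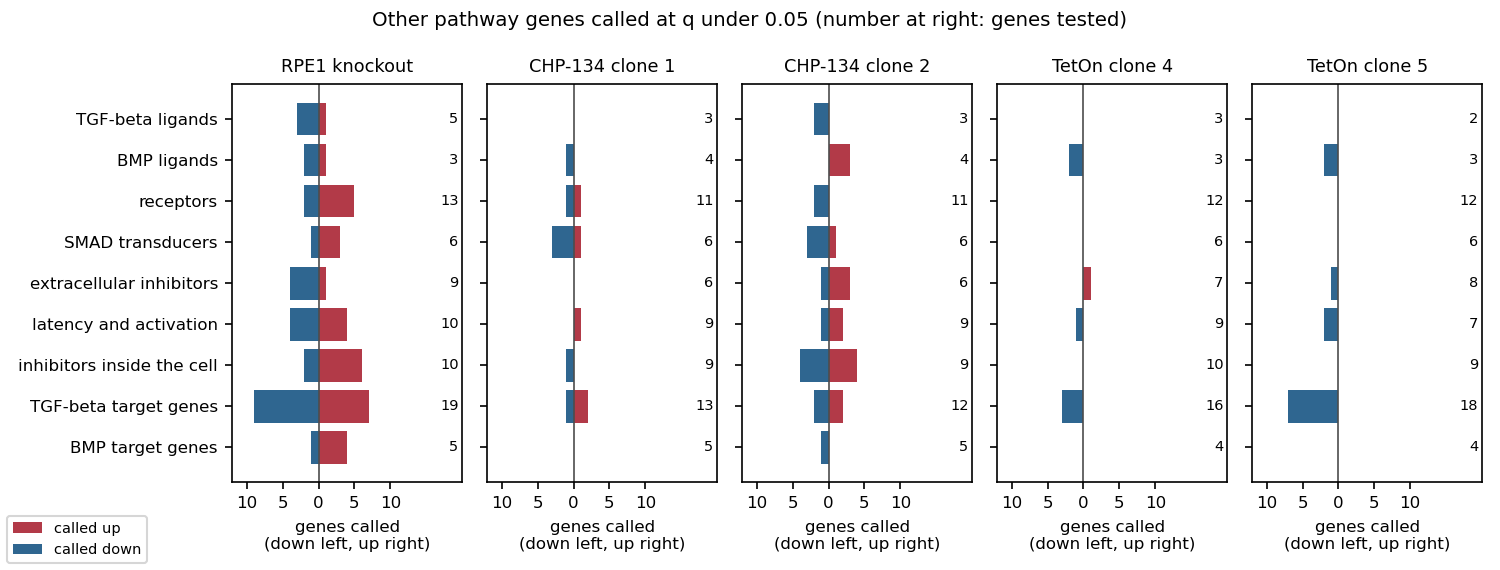
Number of other pathway genes called down (left of 0) or up (right of 0) at a q under 0.05 in each of 9 roles (rows) and 5 comparisons (panels), with the number tested at the right edge. In TetOn clone 5 the TGF-beta target genes show 7 down and 0 up of 18.

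Of the 9 roles the TGF-beta target genes, which are also the longest list, gave the most calls under induction. In TetOn clone 5, 0 rose and 7 fell of 18 tested, with a median of -0.13, and in clone 4, 0 rose and 3 fell of 16 with a median of -0.09. The background of genes called down was 2.17% and 1.23%. CTGF, a matricellular growth factor gene, fell by 0.38, SE 0.025 (q printed as 0) in clone 5 of the authors' deposited tables. TSC22D1, a leucine zipper gene, fell by 0.27, SE 0.0294 in clone 5 and by 0.21, SE 0.0355 in clone 4 of the authors' deposited tables. Also called in clone 5 were JUNB, BHLHE40, CDKN2B and ADAM19, from -0.21 to -0.36 in the authors' deposited table, named after their values were seen. Many of these genes are also known to answer to other pathways. In the knockout the same list split, 7 up and 9 down of 19, a share of 84.2% beside 53.6% of all tested genes. TAGLN, an actin-binding protein gene, was at -1.75 (SE 0.0331) there in the authors' deposited table. In CHP-134 clone 1 the list went 2 up and 1 down of 13, 23.1% beside 18.7% of all tested genes. In clone 2 it went 2 up and 2 down of 12, 33.3% beside 46.2%. FN1, the fibronectin gene, was called in opposite directions there, at -0.68 (SE 0.0791) in clone 1 and 0.47 (SE 0.0768) in clone 2 of the authors' deposited tables, and the smooth muscle actin gene ACTA2 rose in both, by 0.93 (SE 0.214) in clone 1 and 2.04 (SE 0.194) in clone 2 of the authors' deposited tables.

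The BMP ligand genes BMP2 and GDF6 fell in the RPE1 lines both on loss and on induction of TRIM37. GDF6, a growth and differentiation factor of eye and skeleton, fell by 1.43, SE 0.0303 in the knockout, by 0.34, SE 0.0534 in TetOn clone 4 and by 0.51, SE 0.0252 in clone 5 of the authors' deposited tables. BMP2 fell by 0.73, SE 0.132, by 0.52, SE 0.113 and by 0.54, SE 0.116 in the same order in the authors' deposited tables. These were 2 of the 3 BMP ligand genes tested in each RPE1 comparison. Of all tested genes 26.9% were called down in the knockout, 1.23% in TetOn clone 4 and 2.17% in clone 5. The third BMP ligand gene, BMP6, named after its values were seen, rose in the knockout (0.70) and was not called in the TetOn clones (0.07 and -0.34) in the authors' deposited tables. In CHP-134 clone 2, by contrast, 3 of 4 rose, where 22.0% of all tested genes were called up. GDF6 was at 1.66, SE 0.184 and BMP7 at 1.02, SE 0.133 there in the authors' deposited table. In clone 1 BMP7 fell by 0.85, SE 0.17 in the authors' deposited table and the other 3 were not called. Of the 5 BMP target genes tested in the knockout 4 rose and 1 fell, with a median of 0.91. Of all tested genes 26.6% were called up and 26.9% down there, and 5 genes are very few. Among those higher were the homeobox genes DLX5 (2.31, SE 0.267) and MSX1 (0.91, SE 0.135) in the authors' deposited table. None of the 4 BMP target genes tested in either TetOn clone was called, beside 1.95% and 2.97% of all tested genes in clones 4 and 5.

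Genes listed as TGF-beta ligands, apart from TGFB1 and INHBA, went 1 up and 3 down of 5 in the knockout, 80.0% beside 53.6% of all tested genes. The list also counts INHA, an inhibin subunit gene called down there, so its tally is not one of signalling ligands alone. TGFB2 was at -1.20, SE 0.0279 and GDF11 at 0.74, SE 0.0434 in the authors' deposited table. In CHP-134 clone 2 this role went 0 up and 2 down of 3, 66.7% beside 46.2% of all tested genes. TGFB3, a ligand of the palate and other epithelia, was at -0.62, SE 0.0912 in the authors' deposited table. No gene of this role was called in CHP-134 clone 1 or in the TetOn clones. There 18.7% (CHP-134 clone 1), 1.95% (TetOn clone 4) and 2.97% (TetOn clone 5) of all tested genes were called. Receptor genes went 5 up and 2 down of 13 in the knockout, a share of 53.8% beside 53.6% of all tested genes, with TGFBR2, the ligand-binding receptor, at 0.99, SE 0.0205 and the co-receptor gene ENG at 3.26, SE 0.149 in the authors' deposited table. TGFBR1, the signalling partner of TGFBR2, named after its values were seen, fell by 0.61, SE 0.0415 in the authors' deposited table. Of 12 receptor genes tested in each TetOn clone 0 were called, beside 1.95% and 2.97% of all tested genes in clones 4 and 5. SMAD transducer genes went 3 up and 1 down of 6 in the knockout, 66.7% beside 53.6% of all tested genes. SMAD2 was at -0.16, SE 0.0347 and SMAD9 at 0.25, SE 0.0674 in the authors' deposited table. In each TetOn clone 0 of 6 transducer genes were called, beside the same 1.95% and 2.97% of all tested genes. At such low shares counts of 0 in lists this short say little about receptors or transducers. In each CHP-134 clone they went 1 up and 3 down of 6. That is 66.7% beside 18.7% of all tested genes in clone 1 and 46.2% in clone 2. SMAD3, a TGF-beta transducer, fell by 0.55, SE 0.071 in CHP-134 clone 1 and rose by 0.47, SE 0.0611 in clone 2 of the authors' deposited tables.

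Extracellular inhibitor genes went 1 up and 4 down of 9 in the knockout, a share of 55.6% beside 53.6% of all tested genes. The BMP antagonist gene GREM1 was at -0.79, SE 0.0274 and CRIM1 at -0.86, SE 0.0231 in the authors' deposited table. FST, which encodes the activin-binding follistatin, fell by 0.36, SE 0.045 in TetOn clone 5, and FSTL3, a related gene, rose by 0.19, SE 0.048 in clone 4 of the authors' deposited tables. Genes of latency and activation went 4 up and 4 down of 10 in the knockout, 80.0% beside 53.6% of all tested genes. Their call with the smallest q in both TetOn clones was THBS1, whose product thrombospondin activates latent TGF-beta. It fell by 0.39, SE 0.0386, q = 9.5e-21 in clone 4 and by 0.51, SE 0.0433, q = 5.65e-29 in clone 5 of the authors' deposited tables. The integrin gene ITGB8, another activator, rose by 0.70, SE 0.0499 in the knockout in the authors' deposited table. Genes listed as inhibitors inside the cell, apart from PMEPA1, SMAD6 and SMAD7, went 6 up and 2 down of 10 in the knockout. That is 80.0% beside 53.6% of all tested genes. The list also counts USP15, a deubiquitinase gene known for promoting TGF-beta signalling, so its tally is not one of inhibitors alone. BAMBI, a decoy receptor gene, fell by 1.35, SE 0.0425 and USP15 rose by 0.62, SE 0.0326 in the authors' deposited table. In CHP-134 clone 2 this role went 4 up and 4 down of 9, 88.9% beside 46.2% of all tested genes. LDLRAD4 was at 1.39, SE 0.158 and SKIL at -0.46, SE 0.0762 in the authors' deposited table. No gene of this role was called in the TetOn clones, beside 1.95% and 2.97% of all tested genes in clones 4 and 5.

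No member met the likeness rule, which asked for a gene tested in all 5 tables whose log2 fold change reached 0.5 in size in 1 of them. When genes marked Outlier were allowed, a change made after the values were seen, 4 members qualified among 11274 genes. Likeness was the Euclidean distance over the 5 log2 fold changes, of which the CHP-134 pair shares controls. Nearest to PMEPA1 were NPTX1 (distance 0.23), SGK223 (0.24) and TNFSF4 (0.36), all near 1.5 in the knockout. Nearest to TGFB1 were GLTSCR1 (0.17), LOC642361 (0.21) and RHBDF1 (0.24). The 3 genes nearest to ID1 were ISCU (0.14), MDM2 (0.16) and PXN (0.17) and those nearest to ID2 were SLC35E3 (0.17), CIT (0.19) and TRIAP1 (0.19). All 6 of these lie on chromosome 12 by the RefSeq gene table, whereas ID1 lies on chromosome 20 and ID2 on chromosome 2.

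Under a stricter reading of the statistics fewer members were called. With log2 fold change over SE rescaled to its own central spread over all genes, PMEPA1 alone of the 6 members tested in the knockout passed, 0 of 3 passed in each CHP-134 clone, and TGFB1 and BMP4 passed in TetOn clone 5, with PMEPA1 at an adjusted p of 0.111. Rescaling lowered the statistic of every gene of a table by the same factor, and the share of all genes passing is not given here. These counts therefore do not say whether the members stood out from other genes. No call of a member reaches an absolute log2 fold change of 0.58 in the TetOn clones or in CHP-134 clone 1.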

How the data were processed

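STAR and DESeq2 are the tools the authors name, per the submitters' processing notes. Their versions, the annotation and build, how reads were counted and whether strand was used are not stated in any source used here. Each of the 5 deposited tables gives, per the file headers, for 23710 gene symbols a mean count of unstated scaling, a log2 fold change with its SE and a q value. The authors' deposited q values are adjusted p-values and were used as they stand, with a threshold of 0.05. No file names the numerator, so the direction was taken from TRIM37. The SE grows no larger at the lowest counts (its median under a mean count of 1 was 0.0555 in TetOn clone 4, against 0.19 at 10 to 100), so fold changes of low genes may be pulled towards 0. No count model was fitted. Depth per library is unknown, so no counting interval or floor was computed.

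Computed here with Python 3.11.15, numpy 2.4.6, pandas 2.3.3 and scipy 1.17.1 were the group levels, which assume the equal group sizes of the labels, and 4 tests of the difference between comparisons (difference divided by its SE, with squared SEs added, two-sided normal p, Benjamini-Hochberg over all genes tested in both tables). These and the recomputed q were tested on simulated data. Recomputing q from log2 fold change over SE called 6959 genes against 6963 in the knockout. The members and lists were chosen with earlier results of these data known. The named genes are all members and, per role and comparison, the 2 called pathway genes with the smallest q, of which part are printed and some are not reported here. BMP6, TGFBR1, JUNB, BHLHE40, CDKN2B, ADAM19 and INHA fall outside this rule and were named after their values were seen. Alternatives were other thresholds, a minimum absolute log2 value of 0.58, a mean count of at least 100, a rescaled statistic, genes marked as outliers kept, and a covariance of 0.5.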

Additional observations from a re-analysis of the deposited data

Results flagged for a closer look

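The 3 results given here were singled out because the difference from wild type was not the same in the RPE1 and CHP-134 lines by a test of that difference. PMEPA1 rose in the RPE1 knockout by 1.17 more on the log2 scale than in CHP-134 clone 1 (SE 0.0907, adjusted p = 4.66e-36) and by 1.14 more than in clone 2 (SE 0.0946, adjusted p = 6.52e-32). For BMP4 the knockout minus clone 2 difference was -0.63 (SE 0.226, adjusted p = 0.014), which rests on a mean count of 47.3 in the authors' deposited table for clone 2. That call was lost with the statistic rescaled to its central spread over all genes (adjusted p = 0.945) and at a threshold of 0.01, while both PMEPA1 differences passed under each. These tests compare single lines, and the p-values are two-sided from a normal test with Benjamini-Hochberg adjustment over all genes tested in both tables. No group could be checked for a library far from the others, as no value per library was analysed here.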

How the results depend on the processing

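The alternatives leave each fold change as it is, so they could take away or add a call but could not reverse one. The counts of members called were 5, 2, 2, 0 and 3 in the RPE1 knockout, CHP-134 clones 1 and 2 and TetOn clones 4 and 5. With a minimum absolute log2 value of 0.58 they were 2, 0, 1, 0 and 0. With the rescaled statistic they were 1, 0 and 0 in the knockout and the CHP-134 clones. Keeping genes marked as outliers gave 8 in the knockout and 1 in TetOn clone 4, and a threshold of 0.01 gave 1 in CHP-134 clone 1. The share of all genes called under each alternative is not given here, so the counts of this section have no background beside them. For the other pathway genes, for which these settings were added after seeing the data, 60, 12, 31, 7 and 12 calls became 33, 3, 12, 0 and 0 at 0.58, and 24, 3 and 1 in the knockout and the CHP-134 clones with the rescaled statistic, whose central spread was 3.64, 1.84 and 3.08, against 1.10 and 1.11 in the TetOn clones. A threshold of 0.01 left 7 of the 12 in CHP-134 clone 1. In the tests of the difference, keeping genes marked as outliers moved the members called from 0 to 1 between the TetOn clones, from 0 to 1 between the CHP-134 clones, from 1 to 3 between the knockout and clone 1 and from 2 to 5 between the knockout and clone 2. The last count was 1 at a threshold of 0.01, 1 at a mean count of at least 100, where BMP4 is not tested, and 1 with the rescaled statistic. The covariance of 0.5 gave 1 between the CHP-134 clones. The other 58 of 85 counts stayed within 1.5 times. All 36 ratios of levels kept their direction and stayed within 1.5 times under scaling by the median ratio over genes, chosen after seeing the data. That scaling moves all genes of a pair of tables by the same factor, so the 36 ratios are not separate checks. Replicates could not be left out in turn because the tables hold no value per library. No paired analysis was possible because the comparisons were deposited without values per library. Where fold changes are small and counts low, as for BMP4 in CHP-134, the SE limits what could be detected.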
